A study of Mus musculus with 4 samples.

Results

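The 10 mouse genes for the enzymes that set, copy and remove DNA methylation, and for the proteins that guide them, were examined for methylation of their own promoters and gene bodies in lung tumors. They are Dnmt1, Dnmt3a, Dnmt3b, Dnmt3l, Uhrf1, Uhrf2, Tet1, Tet2, Tet3 and Tdg, chosen by name for their place in this pathway among 55413 annotated genes. Reduced representation bisulfite sequencing (RRBS), which reads cytosine methylation near the cut sites of a methylation-insensitive enzyme, had been done on 4 tumors, 2 from each of 2 lung adenocarcinoma lines. The 344SQP group came from the parental cell line and the 344SQR group from the line derived from it that resists anti-PD1 antibody, each line grown under the skin of a leg in female 129Sv/Ev mice 12 to 16 weeks old. Mice of both groups had received anti-PD1 at 10 mg/kg from day 4 for 4 doses, and tumors were taken 24 h after the last dose. Each group is thus a single cell line grown in a host, and IgG-treated tumors were not analysed here. The tumors of a group came from separate mice by the paper's methods, and the labels give each a replicate number. The main test pools the reads of a line, so its FDRs measure counting error and not the spread between tumors, which edgeR and limma take into account.

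In mammals, DNMT1 copies methylation onto the new DNA strand after UHRF1 has bound the half-methylated site, while DNMT3A and DNMT3B, with the catalytically inactive partner DNMT3L, methylate unmodified sites. TET proteins oxidize the methyl group stepwise, and TDG excises the oxidized products so that base excision repair can restore an unmethylated cytosine. Promoters in dense CpG islands are usually unmethylated in normal cells and gene bodies are usually methylated.

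The tumors held 116794455 and 138331886 CpG calls in 344SQP replicates 1 and 2, and 160548303 and 174689402 in 344SQR replicates 1 and 2. Sites listed at any coverage numbered 2770733, 2695851, 3772295 and 6377285 in the same order, the most in 344SQR replicate 2. At 1081201 cytosines of CpG dinucleotides all 4 tumors had at least 20 reads, and over these sites mean coverage was 103.4, 121, 140 and 144 reads in the same order. Mean methylation was 31.0% and 32.7% in 344SQP and 29.4% and 29.1% in 344SQR. A promoter window ran from 1000 bp before to 500 bp after a transcription start site (TSS), each TSS having its own window, and the level of a window or gene body was the mean over its sites. Every position is that of mm10, counted from 1.

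The 10 genes had 29 windows, of which 24 held at least 1 qualified site, and because neighboring TSSs share sites these amounted to 17 distinct sets. Most were unmethylated: of the 9 distinct CpG-rich sets (GC of at least 55% and an observed over expected CpG ratio of at least 0.6), 8 had a mean under 5%, as did 80.9% of the 12360 CpG-rich windows of the genome. By a likelihood ratio test at each site, combined as signed Stouffer's z and Benjamini-Hochberg adjusted over all windows (FDR under 0.05), 11 of the 24 member windows differed between the lines, where 35.3% of all 32347 windows did. Lower in 344SQR were 8, with a background of 26.9%, in Dnmt3b, Uhrf1, Dnmt3l and Tet3. Higher in 344SQR were 3, with a background of 8.42%, in Dnmt3a and Uhrf2. The lines did not overlap in 11 windows, where 39.5% of all windows had no overlap. Of the called windows 4 are overlapping windows of Dnmt3b. The median difference over the member windows was -0.120 percentage points, and over all windows it was -0.201.

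With the spread between tumors taken into account, the quasi-likelihood test of edgeR found 0 of the 24 member windows, with 0.161% called among all windows; 4 member windows, the overlapping ones of Dnmt3b with 2 distinct sets of sites, had an unadjusted p under 0.05, as did 2708 of all 32331 windows tested. limma called 0 windows, with 4 member windows and 3107 of all windows at an unadjusted p under 0.05. Over single cytosines, 118 of the 1131 member sites were lower and 26 higher in 344SQR by the likelihood ratio test, 12.7% together, against 24.4% of all sites. An exact permutation test of 2 against 2 tumors cannot go below p = 0.333. In bulk tumors a change within the cancer cells and a change in the share of host cells cannot be told apart.

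**Figure D1:**
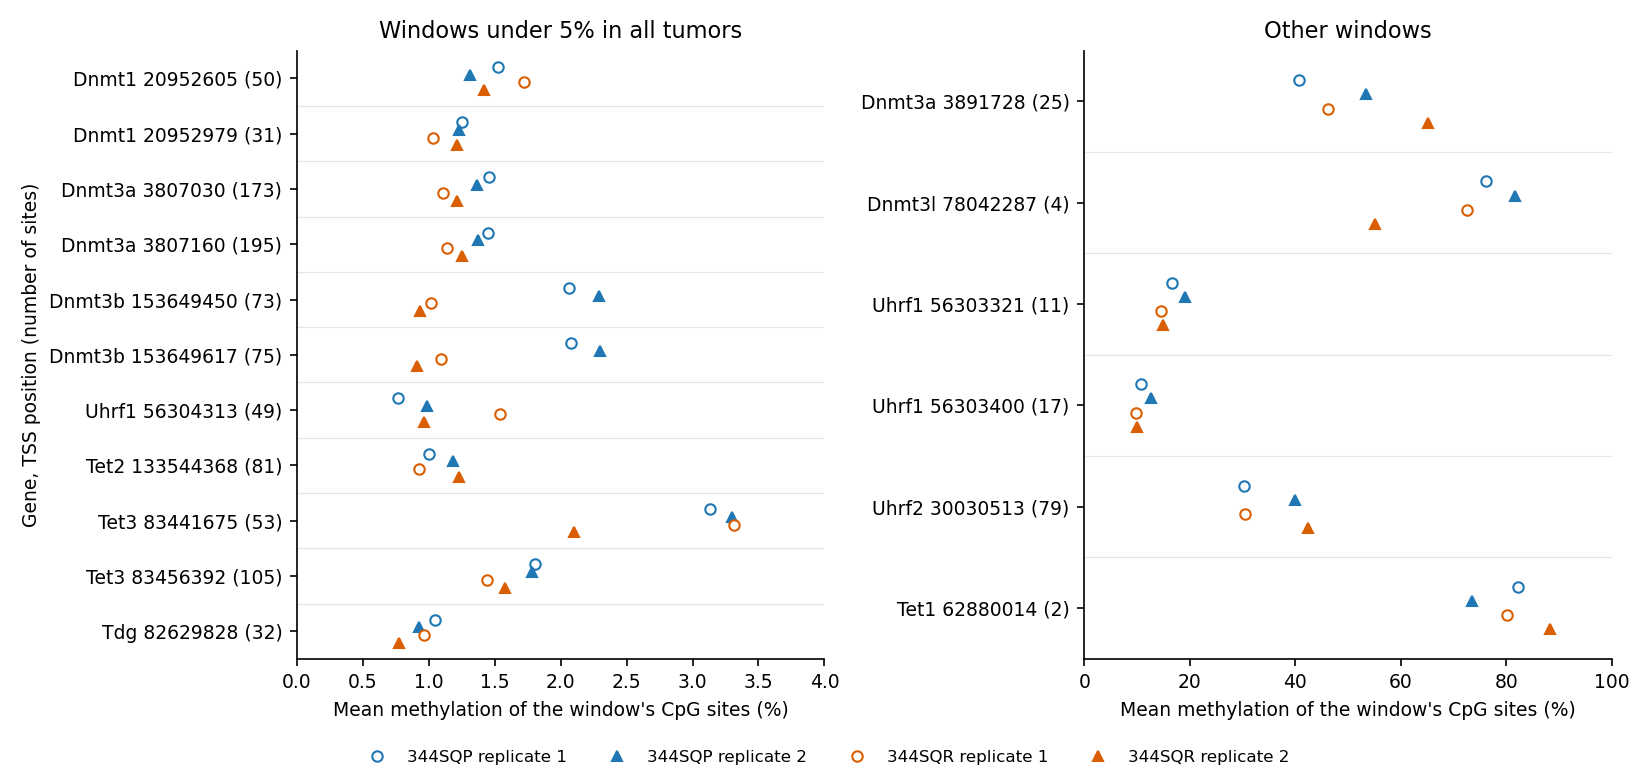
Mean methylation in percent (horizontal axis) of each distinct member window in each of the 4 tumors, labelled by gene, TSS position and number of sites; circles are replicate 1, triangles replicate 2, blue 344SQP and orange 344SQR. Windows in the left panel lie under 5% in all tumors, and Dnmt3b separates the lines there at 2.06% and 2.29% against 1.02% and 0.937%; in the right panel Uhrf2 and Dnmt3a windows separate by replicate number rather than by line.

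Maintenance methylation rests on Dnmt1, which encodes the copying enzyme, and on Uhrf1, whose product reads half-methylated CpGs. Uhrf2, the paralog of Uhrf1, is described beside them. Dnmt1 has 4 windows on chromosome 9, minus strand. The pair at TSSs 20952605 and 20952623 shares 50 sites, which averaged 1.52% and 1.32% in 344SQP and 1.72% and 1.42% in 344SQR. At TSS 20952979, 31 sites averaged 1.25% and 1.23% against 1.03% and 1.21%. The promoter was therefore unmethylated in every tumor at these sites, the first pair of windows overlapped between the lines, and neither set passed the test (FDR = 0.538 and 0.854 by Stouffer's z). The most upstream start, at 20959888, held no qualified site.

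Along the Dnmt1 gene body (chr9:20907209-20959888), 44 sites averaged 91.7% and 90.5% in 344SQP and 88.8% and 85.6% in 344SQR, group means of 91.1% ± 0.844 and 87.2% ± 2.23 (SD, n = 2). Both 344SQR tumors lay below both 344SQP tumors. The difference was -3.91 percentage points (z = -6.58, FDR = 1.65e-10, Stouffer's z; edgeR adjusted p = 0.349), and without 344SQR replicate 2 it was -2.33. Among stretches of neighboring sites, the largest falls were intronic. Of these, 6 sites at chr9:20943740-20943815 averaged 84.1% and 81.4% in 344SQP and 77.7% and 61.7% in 344SQR, and 4 sites at chr9:20944147-20944458 went from 68.2% and 63.7% to 61.2% and 47.8%. At the single site with the largest difference, the minus-strand cytosine at 20943815, methylation was 73.5% of 147 reads (95% Wilson interval 65.8 to 79.9) and 77.2% of 145 (69.8 to 83.3) in 344SQP, and 57.0% of 151 (49.0 to 64.6) and 28.6% of 189 (22.6 to 35.4) in 344SQR. Such intervals cover counting error only, since PCR copies of a read are not independent molecules. Near the end of the gene, 13 sites in coding exons at chr9:20908506-20908681 averaged 96.3% and 96.1% in 344SQP and 94.8% and 93.6% in 344SQR, and 2 of them were called lower, where 18.4% of all sites were.

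Uhrf1 lies on chromosome 17, plus strand, and its 4 windows fall into 3 sets. Around TSSs 56304313 and 56304348, 49 sites averaged 0.763% and 0.984% in 344SQP and 1.54% and 0.967% in 344SQR, unmethylated in all 4 tumors. The upstream start at 56303321 had 11 sites with 16.6% and 19.1% in 344SQP and 14.5% and 14.9% in 344SQR, so that the lines did not overlap. The difference was -3.08 points (z = -3.39, FDR = 0.00267, Stouffer's z; edgeR adjusted p = 0.840), and without 344SQP replicate 2 it was -1.82 with FDR = 0.182. The window at 56303400 adds sites of low methylation to the same ones (17 sites; 10.9%, 12.7%, 9.84% and 9.92%), and its call (difference -1.92, FDR = 0.0185) was lost without 344SQP replicate 2 (-0.978, FDR = 0.645) and without 344SQR replicate 2 (-1.97, FDR = 0.1595). Most of the methylation of both windows sits in a short cluster at chr17:56302816-56302866, from -505 to -455 bp of the start at 56303321. Its 6 cytosines averaged 29.0% and 33.7% in 344SQP and 25.9% and 26.8% in 344SQR. Within the cluster single cytosines ranged from 4.42% to 53.1% in 344SQP replicate 1. The strands of the cluster's outer CpGs disagreed in every tumor, given with 344SQP before 344SQR. The plus-strand cytosine 56302816 stood at 38.3%, 41.0%, 42.3% and 45.9%, and its minus-strand partner 56302817 at 4.42%, 4.29%, 0.833% and 1.83%. Likewise 56302866 on the minus strand had 29.7%, 40.2%, 29.1% and 33.0%, and 56302865 on the plus strand 5.26%, 4.19%, 7.91% and 3.72%. The cluster means include these low cytosines, and the reason for the disagreement was not tested. The largest difference was at 56302846 on the minus strand, 53.1% of 113 reads and 59.0% of 134 against 35.8% of 120 and 39.6% of 106. The gene body of Uhrf1, with 13 sites, averaged 94.4% to 96.2% in the tumors and did not pass the test (difference -0.879, FDR = 0.219). It was called lower without 344SQR replicate 1 (-1.78, FDR = 0.0454), at a coverage of at least 50 reads (-1.43, FDR = 0.0488), and without the windows of every start in the comprehensive annotation (-1.58, FDR = 0.0359), a setting chosen after seeing the data.

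The cluster is shown because it holds most of the methylation of the upstream windows. Its stretch of GRCm38, chr17:56302717-56302866 on the plus strand, lies outside every annotated exon, with CpGs in capitals:
Uhrf1: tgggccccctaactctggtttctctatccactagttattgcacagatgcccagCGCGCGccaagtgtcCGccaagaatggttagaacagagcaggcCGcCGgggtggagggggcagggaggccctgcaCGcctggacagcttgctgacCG

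Uhrf2 had the only CpG-rich member window that was methylated, on its upstream side alone. Its window (TSS 30030513, chromosome 19, plus strand) held 79 sites that averaged 30.3% and 40.0% in 344SQP and 30.5% and 42.4% in 344SQR. The replicate 1 tumors of both lines were low and the replicate 2 tumors of both lines high, and the lines overlapped. The difference between lines was 1.29 points (FDR = 0.000745 by Stouffer's z), but it turned to -3.56 without 344SQP replicate 1 and to -4.67 without 344SQR replicate 2. Among all windows with at least 5 sites, replicate 2 was at least 5 points above replicate 1 in both lines in 10.4%, and at least 5 points below in both in 3.09%.

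The 37 upstream sites of Uhrf2, at chr19:30029834-30030142 from -679 to -371 bp of the TSS, held the methylation. They averaged 63.9% and 84.6% in 344SQP and 64.2% and 89.2% in 344SQR, and 36 of the 37 were higher in replicate 2 than in replicate 1 in both lines. The 42 sites from -61 to 408 bp of the TSS averaged 0.764% and 0.801% in 344SQP and 0.849% and 1.18% in 344SQR. Another 13 sites in an intron, 732 to 814 bp after the TSS, averaged 1.69%, 0.641%, 0.987% and 0.704% in the same order. The border between the methylated and the unmethylated stretch thus fell between 30030142 and 30030452 in all 4 tumors. Coverage was ample, at 54 to 318 reads for each upstream site in each tumor. CpG-rich windows with a mean of at least 25% made up 7.31% of all CpG-rich windows. The upstream stretch with the most sites, chr19:30029993-30030142 on the plus strand (GRCm38), is outside annotated exons and holds 18 CpGs, in capitals, read as 29 cytosines at 60.3% and 83.1% in 344SQP and 59.4% and 89.0% in 344SQR:
Uhrf2: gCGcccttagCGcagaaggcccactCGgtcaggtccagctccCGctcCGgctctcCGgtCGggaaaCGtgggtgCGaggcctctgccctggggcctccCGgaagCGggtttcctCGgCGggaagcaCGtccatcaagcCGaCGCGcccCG

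**Figure D2:**
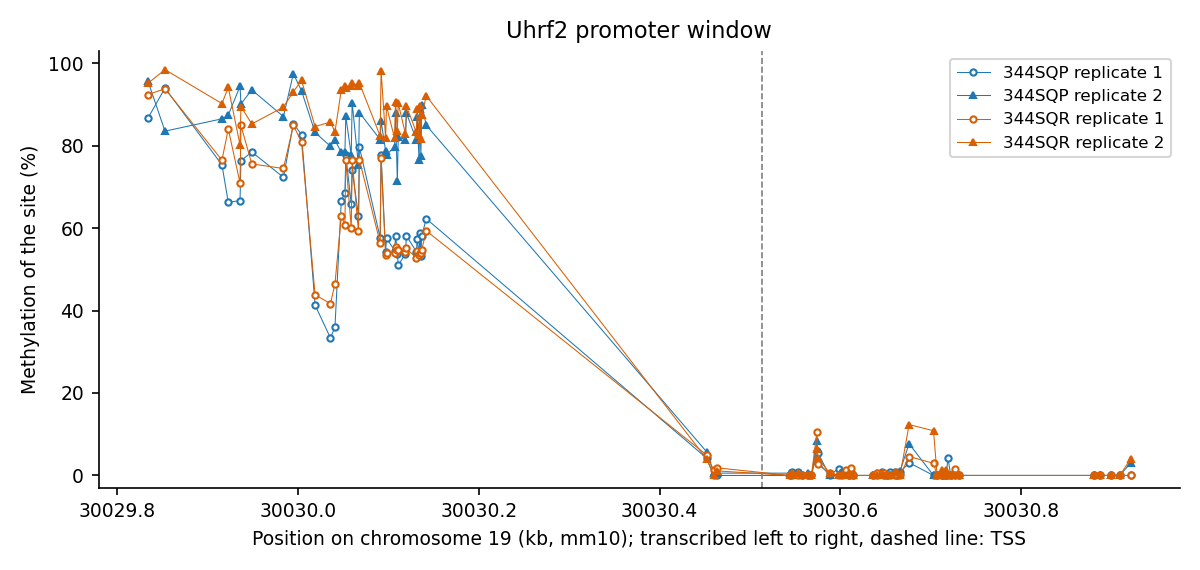
Methylation in percent (vertical axis) of each qualified cytosine of the Uhrf2 window against its position on chromosome 19 in kb (horizontal axis), 1 line per tumor, with the TSS dashed. The 37 upstream sites separate replicate 1 (63.9% and 64.2% on average) from replicate 2 (84.6% and 89.2%), and the sites around the TSS are near 0 in all tumors.

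De novo methylation is the work of Dnmt3a and Dnmt3b, with Dnmt3l as their germline cofactor. Dnmt3a, on chromosome 12, plus strand, opens in a large CpG island. Its window at TSS 3807030 held 173 sites with 1.46% and 1.37% in 344SQP and 1.11% and 1.21% in 344SQR, and that at 3807160 held 195 sites with 1.45%, 1.38%, 1.14% and 1.25%. The lines did not overlap in these windows, but the differences of -0.255 and -0.220 points were not called (FDR = 0.0607 and 0.0659). Downstream of the island 3 intronic sites at chr12:3808574-3808804 averaged 45.3% and 58.5% in 344SQP and 14.8% and 7.88% in 344SQR. At the plus-strand cytosine 3808622, methylation was 58.1% of 43 reads (95% Wilson interval 43.3 to 71.6) and 81.3% of 48 (68.1 to 89.8) in 344SQP, and 21.8% of 55 (12.9 to 34.4) and 2.22% of 45 (0.393 to 11.6) in 344SQR. All 3 of these sites were lower in both 344SQR tumors than in both 344SQP tumors, beside 21.2% of all sites. The stretch was chosen after seeing the data.

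The alternative Dnmt3a start within the gene, at TSSs 3891728 and 3891744, gives rise to the shorter protein isoform, and its windows share 25 sites. They averaged 40.8% and 53.4% in 344SQP and 46.1% and 65.1% in 344SQR, so the lines overlapped and replicate 2 was above replicate 1 in both. The difference was 8.52 points (z = 7.42, FDR = 9.89e-13, Stouffer's z; edgeR adjusted p = 0.848), with 10 of the 25 sites higher and 1 lower, beside 6.04% and 18.4% of all sites. It was carried by 344SQR replicate 2: without that tumor the difference was -0.995, with FDR = 0.191, and without 344SQP replicate 1 it was 2.19, with FDR = 0.211. At the plus-strand cytosine 3891631, the site with the largest difference, methylation was 19.2% of 99 reads and 38.1% of 105 in 344SQP, and 37.1% of 89 and 85.4% of 96 in 344SQR. The stretch that holds 18 of the 25 sites, chr12:3891518-3891667 on the plus strand (GRCm38), is intronic, with its 13 CpGs in capitals:
Dnmt3a: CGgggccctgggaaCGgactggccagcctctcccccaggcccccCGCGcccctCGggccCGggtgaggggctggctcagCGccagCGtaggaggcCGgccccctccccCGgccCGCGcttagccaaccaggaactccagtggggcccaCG

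The Dnmt3a body outside the windows (chr12:3806007-3914443), where 121 sites include the rest of the island, averaged 36.5% and 38.7% in 344SQP and 34.4% and 34.6% in 344SQR. Both 344SQR tumors were lower, and the difference was -3.12 points (z = -8.96, FDR = 1.73e-18, Stouffer's z; edgeR adjusted p = 0.381). Without 344SQP replicate 2 it was -2.05. Of its sites 20 were called lower and 3 higher, beside 18.4% and 6.04% of all sites. Stretches beyond the internal start were methylated in all tumors, as at chr12:3895813-3896087, where 8 sites averaged 97.3%, 97.9%, 96.3% and 95.5%.

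Dnmt3b, the other de novo enzyme, had a small difference and little spread within a line. On chromosome 2, plus strand, 3 of its 4 windows share 73 sites (TSSs 153649450, 153649453 and 153649454) and that at 153649617 has 75. The 73 sites averaged 2.06% and 2.29% in 344SQP and 1.02% and 0.937% in 344SQR, and the 75 sites averaged 2.08%, 2.30%, 1.09% and 0.912%. The spread within a line was 0.164 and 0.0567 points (SD, n = 2) against a difference of -1.20 points. Stouffer's z called all 4 windows (FDR = 3.00e-21 for the 73 sites), while edgeR's adjusted p was 0.154 with an unadjusted p of 0.000825. Of the 75 sites, 13 were called lower and 0 higher, beside 18.4% and 6.04% of all sites. Both 344SQR tumors were below both 344SQP tumors at 26 sites and above both at 3, where over all sites these shares were 21.2% and 8.27%. The windows overlap those of the antisense gene Dnmt3bos, so the sites belong to both. The intronic stretch with the most sites, chr2:153649741-153649890 (plus strand, GRCm38), averaged 3.10% and 5.06% in 344SQP and 1.47% and 0.648% in 344SQR over 12 cytosines, and is shown with CpGs in capitals:
Dnmt3b: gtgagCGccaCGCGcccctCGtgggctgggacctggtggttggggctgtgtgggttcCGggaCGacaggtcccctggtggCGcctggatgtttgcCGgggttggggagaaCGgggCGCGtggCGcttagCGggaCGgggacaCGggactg

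The body of Dnmt3b had 7 sites at 96.6%, 96.2%, 97.2% and 96.7%, not called (FDR = 0.602).

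Dnmt3l, on chromosome 10, plus strand, was thinly covered. Of its 4 windows only that at TSS 78042287 had qualified sites, 4 in number, all intronic, and the window overlaps the gene Aire. They averaged 76.1% and 81.6% in 344SQP and 72.5% and 55.1% in 344SQR. The 344SQR tumors were both lower but differed by more from each other than the nearer one did from 344SQP. The difference of -15.1 points was called (z = -5.25, FDR = 8.59e-07, Stouffer's z; edgeR adjusted p = 0.788). It was -6.36 with FDR = 0.0557 without 344SQR replicate 2, and at a coverage of at least 50 reads a single site was left, with a difference of 8.41. The largest difference was at the minus-strand cytosine 78042617, 87.5% of 48 reads and 97.8% of 46 in 344SQP against 70.7% of 41 and 37.8% of 45 in 344SQR. The windows at 78049842, 78049959 and 78055335 lacked a qualified site.

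The 12 body sites of Dnmt3l (chr10:78041947-78063622) fell into a low and a high group. A cluster of 6 in an intron at chr10:78043567-78043615 averaged 3.54%, 7.62%, 8.50% and 6.86%, and did not separate the lines. Another 6, of which 5 lie in a coding exon, at chr10:78057291-78057434, averaged 82.6% and 72.9% in 344SQP and 70.6% and 60.9% in 344SQR. Over all 12, the levels of 43.1% and 40.2% against 39.6% and 33.9% gave a difference of -4.96 points (z = -3.78, FDR = 0.000328, Stouffer's z; edgeR adjusted p = 0.831), which was -2.11 with FDR = 0.0639 without 344SQR replicate 2.

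Of the genes for the oxidizing enzymes, Tet1, Tet2 and Tet3, Tet1 is described first. By the pooled test, but not by edgeR, it was lower in 344SQR around a start that the basic transcript set leaves out. That set starts Tet1 (chromosome 10, minus strand) at 62880014 and 62899118. The first window held 2 sites in a coding exon with 82.2% and 73.5% in 344SQP and 80.2% and 88.2% in 344SQR, overlapping and not called (FDR = 0.242), and the other held none. The RefSeq transcript of Tet1 starts at 62887324, a position that the comprehensive GENCODE annotation also gives, 7310 bp from the nearest start of the basic set. Windows of every start in the comprehensive annotation were therefore tested too, a choice made after seeing the data. In that test 32.6% of 60518 windows were called, and 14 of 44 member windows with a site.

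The 32 sites in the window of Tet1 at 62887324 averaged 8.31% and 14.0% in 344SQP and 4.17% and 5.86% in 344SQR. Both 344SQR tumors were below both 344SQP tumors, with group means of 11.1% ± 4.00 and 5.02% ± 1.20 (SD, n = 2). The difference was -6.12 points (z = -13.5, FDR = 7.41e-40, Stouffer's z; edgeR adjusted p = 0.397, unadjusted 0.00888). Without 344SQP replicate 2, the highest tumor, it was -3.29. At the start annotated at 62887512, 19 of these sites averaged 12.0% and 19.3% against 5.86% and 7.84%. A further 16 sites at chr10:62885904-62886465, downstream of this start, had 10.5% and 16.6% in 344SQP and 3.57% and 7.13% in 344SQR. By the likelihood ratio test 12 sites of the window and 11 of the downstream stretch were lower in 344SQR, and 0 were higher in either, beside 18.4% and 6.04% of all sites. Both 344SQR tumors lay below both 344SQP tumors at 17 and 11 sites, respectively, and above both at 0 and 2, beside 21.2% and 8.27% of all sites. The stretch with the most sites outside exons, chr10:62886848-62886997, written on the minus strand (GRCm38) with its 16 CpGs in capitals, averaged 2.86% and 6.16% in 344SQP and 1.70% and 2.98% in 344SQR over 13 cytosines:
Tet1: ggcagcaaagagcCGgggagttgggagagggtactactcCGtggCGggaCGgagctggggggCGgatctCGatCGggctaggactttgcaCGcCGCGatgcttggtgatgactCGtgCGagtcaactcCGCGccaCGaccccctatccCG

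**Figure D3:**
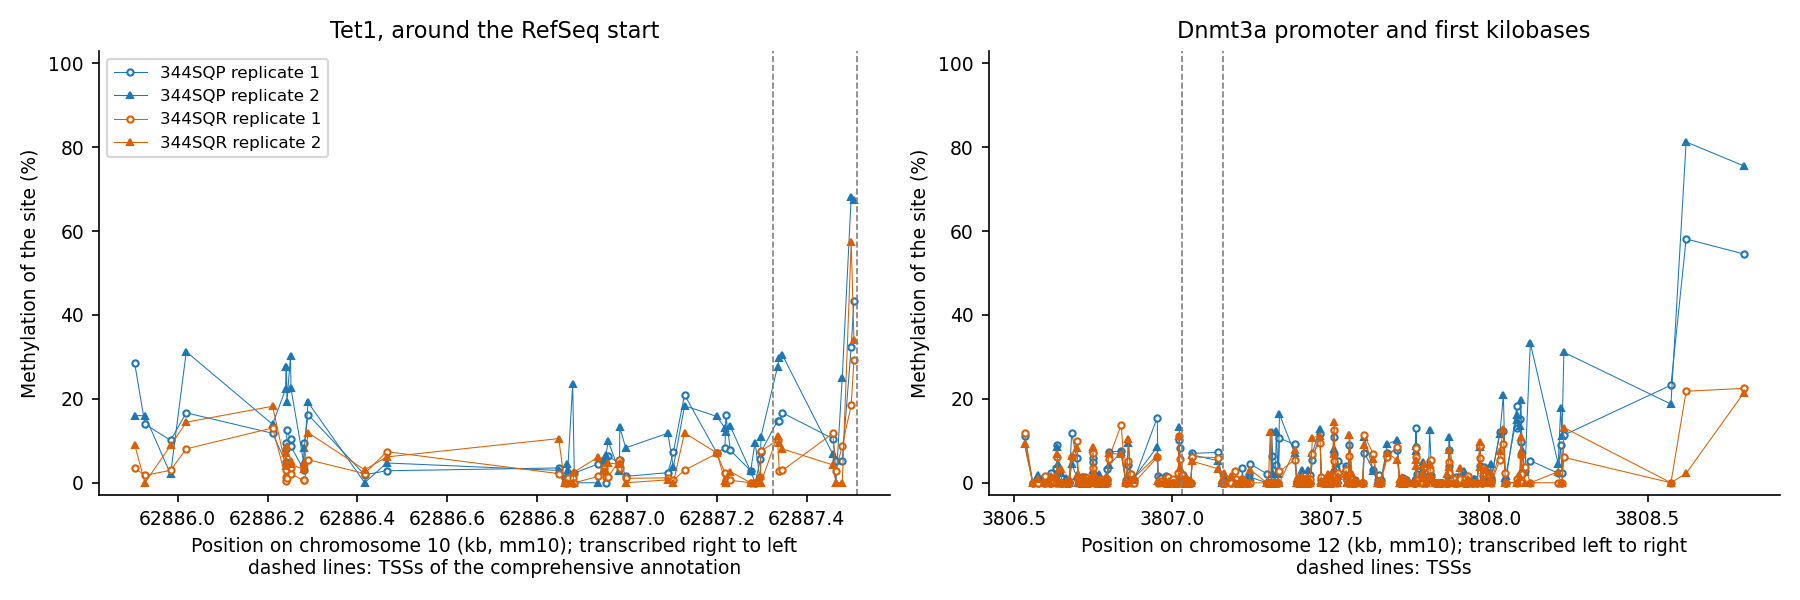
Methylation in percent (vertical axis) of each qualified cytosine against position in kb (horizontal axis), 1 line per tumor and TSSs dashed, for the Tet1 start region on chromosome 10 and the start of Dnmt3a on chromosome 12. In the Tet1 panel the 344SQP tumors lie above the 344SQR tumors on average (8.31% and 14.0% against 4.17% and 5.86% in the window at 62887324), and the last 3 Dnmt3a sites average 45.3% and 58.5% against 14.8% and 7.88%.

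With these sites counted in the gene body, as in the basic set, 77 sites of Tet1 (chr10:62804570-62908996) averaged 36.7% and 40.6% in 344SQP and 31.7% and 30.3% in 344SQR. The difference of -7.64 points was the largest in z of the member bodies (z = -20.2, FDR = 8.18e-89, Stouffer's z; edgeR adjusted p = 0.335). Without the windows of every comprehensive start, 41 sites were left, 16 of them in the downstream stretch, and the levels of 58.1% and 60.4% against 51.5% and 47.3% differed by -9.77 points (FDR = 5.32e-57). Other stretches of the gene were methylated, apart from a pair of intronic sites at chr10:62865697-62865732 (5.56%, 13.2%, 10.3% and 11.6%). At chr10:62824634-62824763, 4 intronic sites averaged 90.1% and 87.9% in 344SQP and 80.9% and 68.1% in 344SQR, and 5 sites in a coding exon at chr10:62839608-62839732 averaged 93.9%, 94.8%, 90.2% and 78.8%. At the plus-strand cytosine 62878138, 31 and 29 reads in 344SQP were all methylated (lower Wilson limits 89.0% and 88.3%), against 58.1% of 31 (40.8 to 73.6) and 55% of 20 (34.2 to 74.2) in 344SQR.

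Tet2, on chromosome 3, minus strand, was unmethylated at its promoter and methylated in its body, and neither was called. The 81 sites shared by the windows at 133544368 and 133544390 averaged 0.999% and 1.18% in 344SQP and 0.930% and 1.23% in 344SQR (FDR = 0.759). The 14 body sites averaged 93.8%, 95.6%, 95.4% and 94.5% (FDR = 0.320).

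Tet3, on chromosome 6, minus strand, has 2 promoters in the annotation. The upstream window, at 83456392, held 105 sites with 1.80% and 1.78% in 344SQP and 1.44% and 1.58% in 344SQR; it was called (FDR = 0.0187) for a difference of -0.285 points, and lost the call without 344SQP replicate 1 (-0.276, FDR = 0.259) and without 344SQP replicate 2 (-0.294, FDR = 0.575). The downstream window, at 83441675, which overlaps the gene B230319C09Rik, held 53 sites with 3.13%, 3.30%, 3.31% and 2.10%, where 344SQR replicate 2 was the low tumor (FDR = 0.484). In the body, 73 sites averaged 90.1% and 90.1% in 344SQP and 89.3% and 85.6% in 344SQR. The difference of -2.66 points (z = -8.10, FDR = 2.48e-15, Stouffer's z; edgeR adjusted p = 0.463) shrank to -0.836 with FDR = 0.0872 without 344SQR replicate 2. A partly methylated stretch of the Tet3 body, 4 intronic sites at chr6:83424253-83424336, stood at 48.7%, 35.0%, 44.6% and 25.8%, lower in replicate 2 than in replicate 1 of both lines. The coding-exon stretch with the most sites, 16 at chr6:83404466-83404690, averaged 94.0% and 94.5% in 344SQP and 90.7% and 88.5% in 344SQR.

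Tdg, which encodes the glycosylase that completes the route, lies on chromosome 10, plus strand. Its windows at 82629828 and 82629859 share 32 sites, with 1.05% and 0.924% in 344SQP and 0.961% and 0.771% in 344SQR (FDR = 0.634). The body rests on 1 intronic cytosine, at 82645125 on the minus strand, methylated in 97.9% of 47 reads (95% Wilson interval 88.9 to 99.6) and 88% of 25 (70.0 to 95.8) in 344SQP, and in 80.6% of 72 (70.0 to 88.05) and 75.0% of 44 (60.6 to 85.4) in 344SQR. The difference of -15.2 points was called (z = -3.14, FDR = 0.00308, Stouffer's z; edgeR adjusted p = 0.409). It was -10.2 with FDR = 0.323 without 344SQP replicate 1. At a coverage of at least 10 reads the body had 4 sites and a difference of -2.68 with FDR = 0.247.

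**Figure D4:**
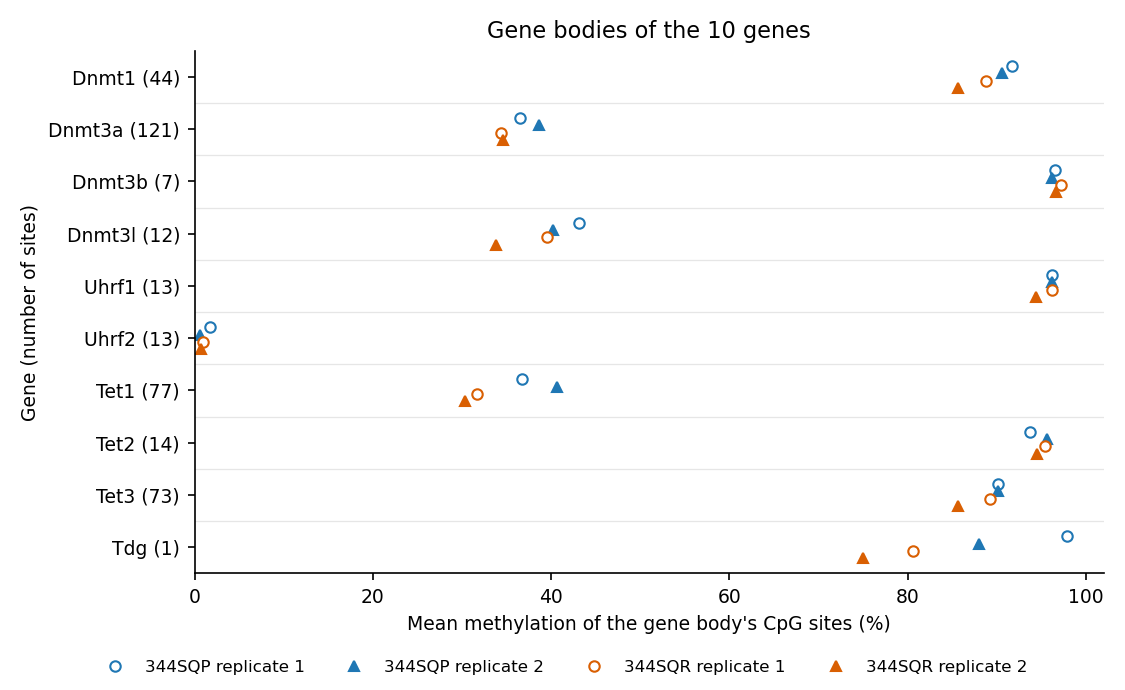
Mean methylation in percent (horizontal axis) of the gene body sites outside promoter windows for each of the 10 genes (number of sites in brackets) in each of the 4 tumors; circles are replicate 1, triangles replicate 2, blue 344SQP and orange 344SQR. In Tet1 the 344SQR tumors, at 31.7% and 30.3%, lie below the 344SQP tumors, at 36.7% and 40.6%, and in Dnmt1 344SQR replicate 2 is lowest at 85.6%.

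Across the 10 gene bodies, 6 were called and all 6 were lower in 344SQR (Dnmt1, Dnmt3a, Dnmt3l, Tet1, Tet3 and Tdg). Of all 18922 bodies with a site 65.4% were called, and 58.5% were called lower. The lines did not overlap in 7 member bodies, with a background of 54.2%. The median difference was -2.89 points over the members and -3.12 over all bodies. The quasi-likelihood test of edgeR found 0 of the 10 at an adjusted p, with 0.00529% called among all bodies, and 0 had an unadjusted p under 0.05, where 3339 of all 18892 bodies tested did. limma called 0 bodies, with 0 members and 2947 of all bodies at an unadjusted p under 0.05. By location, the 115 member sites in coding exons averaged 84.2% and 84.2% in 344SQP and 83.2% and 81.0% in 344SQR. In the same order, the 216 in untranslated parts of exons averaged 10.7%, 11.2%, 10.6% and 11.2%. The 504 in introns averaged 23.2%, 24.7%, 21.9% and 21.7%. Upstream of the genes, 64 sites averaged 39.9%, 52.4%, 39.9% and 54.5%. These came from Uhrf2, Tdg, Dnmt3b and Uhrf1 alone, and most lie in the methylated Uhrf2 stretch that separates by replicate number. The 232 in gene spans outside basic transcripts averaged 2.51%, 2.26%, 2.11% and 1.99%.

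Other genes of the pathway were taken as 4 lists, to be read beside the 26.9% of all windows called lower and the 8.42% called higher. Methyl-CpG readers, with sites in windows of 8 of 8 genes, had 7 of 18 windows called lower and 0 higher. Their largest difference was in Zbtb38, whose 10 sites stood at 49.7%, 27.9%, 41.6% and 15.2%, higher in replicate 1 than in replicate 2 of both lines. Its difference of -10.4 points became 0.524 without 344SQP replicate 1 and 2.82 without 344SQR replicate 2. Zbtb4 differed by -0.516 points over 43 sites, and lost its call without 344SQP replicate 1 (-0.713, FDR = 0.0722) and without 344SQP replicate 2 (-0.318, FDR = 0.561).

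Among partners and guards of the methylation machinery, 15 of 17 genes had a measured window, and 3 of 30 windows were called lower and 3 higher. Nsd1, a histone methyltransferase for the mark that recruits DNMT3A, had all 3 that were higher. Its window at 55210735 stood at 50.4% and 75.2% in 344SQP and 51.7% and 82.5% in 344SQR over 89 sites, the same split by replicate number as in Uhrf2. The difference of 4.29 points turned to -8.11 without 344SQP replicate 1 and to -11.1 without 344SQR replicate 2, and its other windows changed sign without either tumor too (-2.30 and -1.10 at 55211819, -1.54 and -0.573 at 55212075). X-linked Ogt, whose product binds TET proteins, differed by -7.08 points over 3 sites, a call lost without 344SQP replicate 1 (-3.60, FDR = 0.494) and without 344SQR replicate 2 (-3.22, FDR = 0.453). Cxxc5, which encodes a protein that binds unmethylated CpGs, stood at 2.15% and 3.37% in 344SQP and 1.51% and 1.48% in 344SQR over 68 sites. The difference was -1.27 points, and -0.658 without 344SQP replicate 2.

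Excision repair genes and glycosylases, measured in 11 of 13 genes, had 2 of 21 windows called lower and 1 higher. The higher one was Neil2, a glycosylase for oxidized bases, where 14 sites averaged 20.6% and 21.9% in 344SQP and 34.6% and 48.0% in 344SQR. The lines did not overlap, and the difference was 20.01 points (FDR = 1.18e-78 by Stouffer's z), and edgeR's adjusted p was 0.452. Without 344SQR replicate 2 the difference was 13.3. Lower were Neil1 (-8.57 points, 5 sites) and Smug1 (-9.44 points, 2 sites), the latter not without 344SQP replicate 2 (-4.85, FDR = 0.249) or 344SQR replicate 2 (-4.15, FDR = 0.229). Genes that supply the methyl donor and the TET cosubstrate, measured in 9 of 11, had 1 of 14 windows called lower and 0 higher. The median difference was -0.384, -0.0939, -0.212 and -0.125 points over the windows of the 4 lists in this order, beside -0.201 over all windows.

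Because several windows separated by replicate number, marker genes of cells that a tumor can hold are given beside them, by the window with the most sites of each gene. The median over 4 of 11 leukocyte genes was 48.2% and 54.99% in 344SQP and 39.0% and 33.4% in 344SQR. Their mean was 47.6% and 54.2% against 43.3% and 42.4%, with 1 site in Spi1 and 2 in Cd3e. Over the 2 measured of 4 endothelial genes, each with 1 site, the median was 60.9%, 81.0%, 40.2% and 75.4%. For 5 of 6 fibroblast and muscle genes it was 21.02%, 26.4%, 23.5% and 25.9%. Over 6 of 7 epithelial genes it was 6.91%, 5.75%, 6.38% and 5.28%. Replicate 2 was above replicate 1 in 2 of 4 leukocyte, 2 of 2 endothelial and 4 of 5 fibroblast and muscle genes in each line, and in 3 of 6 epithelial genes in 344SQP and 4 of 6 in 344SQR. The mice were female by the paper's methods. Calls on the Y chromosome were 0.0406% and 0.0254% of all calls in 344SQP and 0.0555% and 0.0178% in 344SQR. Calls on the X chromosome were 1.59% and 1.28% against 1.51% and 1.18%. Both shares were lower in replicate 2 of both lines. The number of Y sites listed at any coverage separated by line, at 1587 and 1602 in 344SQP against 848 and 985 in 344SQR. The part of these differences in the levels of Uhrf2, Dnmt3a and Nsd1 was not tested.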

How the data were processed

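RRBS tables of 4 tumors were used, 2 of each line. The authors trimmed reads with Trim Galore 0.4.1 and cutadapt 1.9.1, mapped them with Bismark and Bowtie 1.1.2 to mm10 and deposited, for every cytosine of a CpG, the raw count of unique reads without normalization. The methylated percent of each count is also as deposited, and methylated reads were recomputed from both values. Cytosines with at least 20 reads in every tumor were kept, each strand apart. Depth per tumor is given in the report; at 20 reads a single read moves a site by 5 points. Mice were of a 129 strain while the reference is C57BL/6J, so a C-to-T strain difference would read as unmethylated.

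Windows used transcripts of the GENCODE vM21 basic set. Gene bodies were the gene span without windows. Reads of a line were pooled at each site for a likelihood ratio test (p not taken below 2.2e-16), sites were combined with their sign, and Benjamini-Hochberg adjustment covered all units of a kind. edgeR 4.0.16 (quasi-likelihood, an effect per tumor) and limma 3.58.1 (log2 ratio with 1 read added) ran on summed reads, in R 4.3.3 with Python 3.11.15, numpy 2.4.6, pandas 2.3.3 and scipy 1.17.1. The tests were tried on simulated reads. These were drawn without spread between the tumors of a line, so they cannot show how the tests behave under such spread.

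The members and the lists (methyl-CpG readers, partners and guards, excision repair and glycosylases, donor and cosubstrate supply) were chosen with earlier results of these data known. Every member is named, full statistics go to called units that differ by at least 2 points, single sites are those with the largest difference in such a unit, and lists give up to 3 genes by largest called difference. The stretches of neighboring sites (gaps up to 250 bp), starts from the comprehensive annotation, cell marker genes, and tumors left out in turn for list windows and the Tet1 starts were added after seeing the data. Alternatives tried were coverage minima of 10 and 50, merged strands, a coverage cap, equal depth, at least 5 sites, narrower windows, whole gene spans, each tumor left out, edgeR, limma and replicate blocks.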

Additional observations from a re-analysis of the deposited data

How the results depend on the processing

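The choice of test moved the counts most. edgeR called 52 windows (0 of members) and 1 gene body (0 of members), and limma called 0 windows (0 of members) and 0 bodies (0 of members). With the replicate number as a block, edgeR called 3542 windows, 4 of them member windows (Dnmt3b), and 4293 bodies, 2 of them members (Dnmt3a and Tet1), while a Mantel-Haenszel test with this block called 11022 windows and 12207 bodies. Tumors of the same number deviated together (r = 0.819 over windows and 0.742 over bodies), but with only 2 pairs the numbers do not count as a pairing. Windows of every start of the comprehensive annotation, chosen after seeing the data, gave 19712 calls. At a coverage of at least 50 reads the Dnmt3l window at 78042287 reversed to 8.41 points. With each tumor left out in turn, where the reads of the lone tumor stand for its line, called sites ranged from 166608 to 310163, windows from 9704 to 12440, member windows from 8 to 15, bodies from 9738 to 12857 and member bodies from 4 to 7. The Uhrf2 window ranged from -4.67 to 7.24 points, reversed without 344SQP replicate 1 (-3.56) and without 344SQR replicate 2, and the Dnmt3a window at 3891728 ranged from -0.995 (without 344SQR replicate 2) to 18.03.

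With 2 tumors per line, 1 cell line per group and no RNA or protein measured in these files, neither expression of these genes nor activity of the enzymes was tested. RRBS reads only part of each gene, and bisulfite does not separate 5-methylcytosine from 5-hydroxymethylcytosine, the TET product.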
